A study of Mus musculus with 16 samples.

Results

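The comparison described here set the whole lung against the whole cerebellum of vehicle-treated mice, with 4 arrays of each tissue out of the 16 arrays of the series. The animals were C57BL/6J mice at postnatal day 7, and the labels give no other genotype for them. The groups were lungs of mice given vehicle (4 arrays) and cerebella of mice given vehicle (4 arrays); the other 8 arrays were lungs and cerebella of mice given dexamethasone, a synthetic glucocorticoid, and they entered as separate samples in which the same tissue difference was read again. The 8 vehicle arrays were chosen by their labels alone, so no measured value chose them. Each array measured RNA of a whole organ on an Affymetrix mouse expression array, and each of 18193 genes was read through 1 probe set, that of highest average signal in the 16 arrays. The labels do not say which samples shared a litter, so the p-values rest on the scatter among these arrays, which may be partly technical.

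At the end of the first postnatal week both organs are still being built. In the lung, type 2 alveolar cells secrete surfactant, the lipid and protein film that keeps air spaces open, type 1 cells form the thin gas exchange surface, and fibroblasts and myofibroblasts lay down elastic fibres while the air sacs are divided. In the cerebellum, granule neuron progenitors divide in the outer layer under the influence of Sonic hedgehog from Purkinje cells, newly made granule neurons migrate inward along Bergmann glia, and synapses and myelin are starting to form. Both are mixtures of many cell types, and in such bulk samples fewer cells of a type and less RNA per cell cannot be told apart.

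Values are the deposited log2 values, and a difference is lung minus cerebellum on the log2 scale, so 1 unit is a 2-fold difference and a positive number means higher in lung. A gene was called when limma gave it a Benjamini-Hochberg adjusted p-value below 0.05 over all 18193 genes. Over the genes, the median standard deviation between arrays was 0.15 in lung and 0.15 in cerebellum. Correlations over all genes were 0.991 to 0.995 between vehicle lungs, 0.990 to 0.996 between vehicle cerebella and 0.811 to 0.830 between a lung and a cerebellum. Both tissues held 1 array with Xist high and Kdm5d low and 3 arrays with the opposite pattern, so sex was split alike in the compared groups. On the array's control probe sets the 3' minus 5' difference of Gapdh was 0.84 to 1.04 in the vehicle lungs and 0.04 to 0.52 in the vehicle cerebella, without overlap, whereas that of actin was 0.61 to 0.67 and 0.52 to 0.94; the part of RNA quality in the tissue differences was not tested.

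The organs differed in most of the genes measured. Of 18193 genes, 10497 were called, 57.7% of all: 5086 were higher in lung (28%) and 5411 in cerebellum (29.7%). A call together with an at least 4-fold difference was made for 2284 genes (12.6%), 1181 in lung (6.49%) and 1103 in cerebellum (6.06%). From 8-fold upward the cerebellar side held more genes, 361 against 216 at 16-fold or more and 68 against 45 at 64-fold or more, while at 256-fold or more lung held 8 and cerebellum 5. The arrays of the tissues did not overlap for 56.4% of genes. A gene was counted as alike when the 95% interval of its difference lay within 0.5 of 0 on the log2 scale, which held for 6275 genes (34.5%); of these 3609 were dim, below 6 in both tissues. Of the genes at least 4-fold higher in lung, 512 (43.4%) read below 6 in cerebellum, and of those higher in cerebellum 695 (63.0%) read below 6 in lung, a range in which these arrays compress differences.

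**Figure D1:**
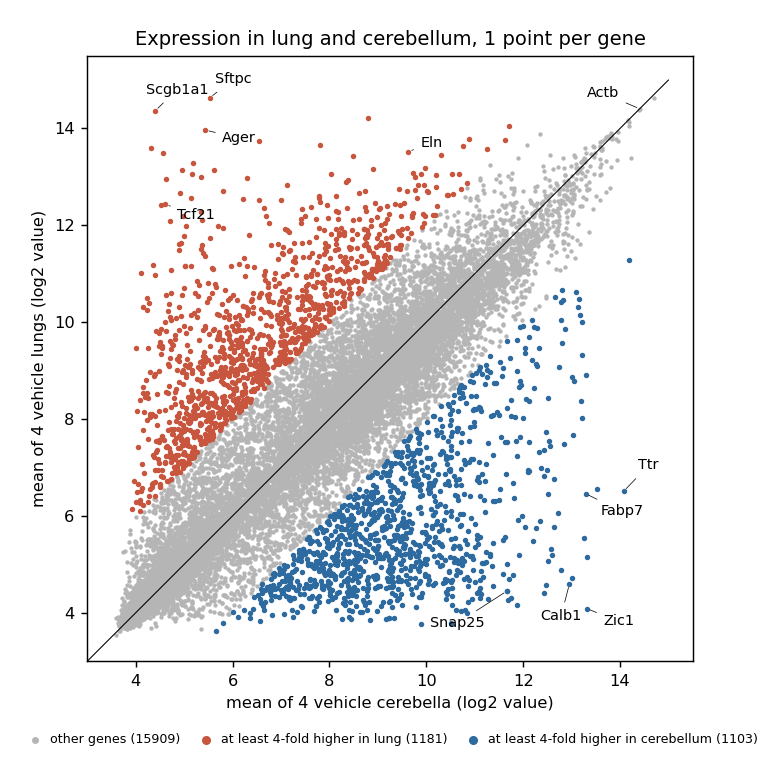
Mean log2 value in 4 vehicle lungs (vertical axis) against that in 4 vehicle cerebella (horizontal axis) for 18193 genes; the line marks equal values. Genes at least 4-fold higher in lung (1181) lie above the line and those at least 4-fold higher in cerebellum (1103) below it, with Scgb1a1 and Zic1 farthest out.

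The balance of calls depends on the scale. Centring every array on its median over 46 proteasome and general transcription genes moved the median difference of all genes from 0.00 to 0.47, and the share of calls that were higher in lung from 48.5% (5086 of 10497) to 80.1% (11278 higher in lung, 2806 higher in cerebellum). Lists whose median changed sign under that centring are named as such where they appear.

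The largest difference in favour of lung was that of Scgb1a1, the secretoglobin of airway club cells, which read 14.26, 14.34, 14.36 and 14.50 in the lungs and 4.19, 4.29, 4.37 and 4.76 in the cerebella. The groups lay 9.96 apart (SE 0.12, limma adjusted p = 1.24e-18), a 998-fold difference. Scgb3a2, a second airway secretoglobin, followed at 9.28, and the surfactant protein genes Sftpc, Sftpa1 and Sftpd at 9.10, 8.94 and 8.18. Sftpc, whose product lines the alveolus and is made by type 2 cells, read 14.58, 14.64, 14.65 and 14.66 in the lungs, near the top of the scale at 14.83, and 5.03, 5.39, 5.68 and 6.03 in the cerebella. No lung array came within 8 units of a cerebellar array for this gene. The rest of the 15 largest were Ager, the type 1 cell receptor for advanced glycation products (8.53), Dpt, the matrix protein dermatopontin (8.34), the carbonyl reductase Cbr2 (8.11), the lung chemokine Cxcl15 (7.91), the cytochrome P450 Cyp2f2 (7.88), the mesenchymal transcription factor Tcf21 (7.82), Dram1, a lysosomal membrane protein of autophagy (7.75), Sec14l3, a lipid-binding protein (7.65), the phosphate transporter Slc34a2 (7.53) and the sodium channel relative Scn7a (7.41).

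Zic1, a zinc finger transcription factor of granule cells, stood farthest on the cerebellar side. It read 13.21, 13.33, 13.34 and 13.36 in the cerebella and 3.69, 4.06, 4.15 and 4.45 in the lungs, a difference of -9.22 (SE 0.16, limma adjusted p = 3.66e-17). Calb1, the calcium-binding protein of Purkinje cells, read 12.86, 12.86, 12.93 and 13.17 in the cerebella against 4.39, 4.48, 4.60 and 4.91 in the lungs, and its difference was -8.36. Neither gene had a lung array within 7 units of a cerebellar one. Next came genes of the neuronal cytoskeleton, namely Ina, the filament protein alpha-internexin (-8.30), Stmn3, a tubulin-binding stathmin (-8.18), Nefl, the light neurofilament chain (-8.03), and Kif5c, a neuronal kinesin heavy chain (-7.91). The transcription factor Neurod1 (-7.90), the adhesion protein Chl1 (-7.71), the Purkinje cell proteins Pcp4 (-7.71) and Pcp2 (-7.45), the thyroid hormone carrier Ttr of choroid plexus (-7.57), the oligodendrocyte factor Olig1 (-7.45), the GABA-making enzyme Gad1 (-7.43), the synapse organizer Cbln1 (-7.41) and the Notch ligand Dner of Purkinje cells (-7.27) completed the 15.

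The promoters of the leading genes differed in how many CG dinucleotides they hold, and the 4 largest differences on each side with a RefSeq window usable here (build GRCm38.p6) are printed to show it. Each line runs 5' to 3' from 120 bases before to 30 bases after the gene's first base, on the gene's strand, with every CG in capitals. The first 4 are higher in lung and the last 4 in cerebellum.
Sftpa1: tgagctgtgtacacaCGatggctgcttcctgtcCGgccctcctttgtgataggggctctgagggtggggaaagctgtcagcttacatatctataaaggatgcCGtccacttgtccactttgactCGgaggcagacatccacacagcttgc
Ager: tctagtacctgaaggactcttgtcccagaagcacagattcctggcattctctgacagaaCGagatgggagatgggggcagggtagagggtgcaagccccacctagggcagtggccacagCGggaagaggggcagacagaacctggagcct
Dpt: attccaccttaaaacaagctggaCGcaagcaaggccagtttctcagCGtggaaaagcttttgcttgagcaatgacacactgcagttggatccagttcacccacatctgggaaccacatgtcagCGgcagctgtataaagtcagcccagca
Cbr2: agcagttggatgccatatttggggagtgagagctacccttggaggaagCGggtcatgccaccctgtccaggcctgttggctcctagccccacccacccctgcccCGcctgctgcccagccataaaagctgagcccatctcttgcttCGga
Zic1: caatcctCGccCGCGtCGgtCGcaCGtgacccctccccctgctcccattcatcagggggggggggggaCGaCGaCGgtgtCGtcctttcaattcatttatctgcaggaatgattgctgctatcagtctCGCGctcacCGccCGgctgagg
Ina: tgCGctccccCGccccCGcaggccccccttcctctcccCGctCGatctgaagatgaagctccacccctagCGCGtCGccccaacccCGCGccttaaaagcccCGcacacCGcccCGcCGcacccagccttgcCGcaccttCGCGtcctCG
Stmn3: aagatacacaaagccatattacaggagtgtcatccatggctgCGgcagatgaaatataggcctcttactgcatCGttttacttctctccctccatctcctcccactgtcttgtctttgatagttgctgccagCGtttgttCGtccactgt
Kif5c: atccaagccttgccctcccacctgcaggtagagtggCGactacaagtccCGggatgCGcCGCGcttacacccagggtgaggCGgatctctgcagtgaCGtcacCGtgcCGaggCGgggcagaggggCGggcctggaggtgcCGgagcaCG

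The printed stretches lie at chr14:41131668-41131817 (plus strand, Sftpa1), chr17:34597730-34597879 (plus strand, Ager), chr1:164796543-164796692 (plus strand, Dpt), chr11:120731992-120732141 (minus strand, Cbr2), chr9:91365739-91365888 (minus strand, Zic1), chr19:47014561-47014710 (plus strand, Ina), chr2:181314471-181314620 (minus strand, Stmn3) and chr2:49619166-49619315 (plus strand, Kif5c). Over the full 300-base windows (250 before to 50 after the start, first listed window per gene), CG dinucleotides numbered 5 for Sftpa1, 4 for Ager, 4 for Dpt and 4 for Cbr2, against 31 for Zic1, 32 for Ina, 14 for Kif5c and 6 for Stmn3, the one cerebellar gene close to the lung genes. A window was found for 14452 of 18193 genes, whose median count was 17. The median was 12 for the 866 matched genes at least 4-fold higher in lung and 18 for the 840 at least 4-fold higher in cerebellum, but also 12 for the 4979 matched genes that were alike. For the 50 largest differences each way it was 4 on the lung side (37 matched) and 15 on the cerebellar side (35 matched). The gene lists described further on did not divide by organ in this count. On the lung side the median was 3 for airway secretory genes (7 matched) and 2 for macrophage genes (11 matched), but 16 for type 1 cell genes (11 matched) and 19 for elastic fibre and lung matrix genes (7 matched). On the cerebellar side it was 19 for synaptic vesicle genes (15 matched) and 24 for cerebellar transcription factors (15 matched), but 8 each for Purkinje cell genes (9 matched), astrocyte and Bergmann glia genes (15 matched) and oligodendrocyte genes (11 matched). The letters TATAAA on the gene's strand, beginning 40 to 20 bases before the start, stood in 2.54% of all matched promoters, in 3.70% of those at least 4-fold higher in lung, in 3.49% of those alike in both organs and in 0.95% of those at least 4-fold higher in cerebellum. It stood in 3 of 10 type 2 cell genes, Sftpa1 among them at position -30. These counts are descriptions with no test.

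Genes of alveolar type 2 cells were all higher in lung. All 13 measured members were called in that direction, 10 at 4-fold or more, and their median difference was 6.96 against 0.00 over all genes. Beside the surfactant proteins these were Slc34a2, which takes up phosphate from surfactant (7.53), the chemokine Cxcl15 and the tight junction protein Cldn18 (7.37). Cldn18 read 11.95, 12.09, 12.10 and 12.22 in the lungs and 4.60, 4.61, 4.73 and 4.93 in the cerebella, so its arrays were far apart. The 3 smallest, named after their values were seen, were the surfactant lipid transporter Abca3 (1.59), the lipid-remodelling acyltransferase Lpcat1 (1.49) and the transcription factor Etv5 (1.31), each of which had a cerebellar mean above 8.

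Of 13 genes of alveolar type 1 cells, 12 were called higher in lung and 1, the insulin-like growth factor binding protein Igfbp2, was not (0.08, with means of 10.92 and 10.84). The list's median was 3.66. Ager read 13.91, 13.91, 14.01 and 14.04 in the lungs and 4.89, 5.40, 5.69 and 5.78 in the cerebella. The water channel Aqp5 (5.56), the intracellular channel protein Clic5 (6.83) and the retinoic acid induced receptor Gprc5a (6.93) were each more than 32-fold higher in lung. Hopx, a homeodomain protein of type 1 cells that Bergmann glia and other astrocytes also make, read 13.00, 13.03, 13.07 and 13.08 in lung and 11.36, 11.42, 11.59 and 11.68 in cerebellum. It was high in both organs and its difference was 1.54 (SE 0.11).

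Airway genes split by cell type. All 13 genes of club and other secretory cells were called higher in lung (median 4.33, 9 at 4-fold or more). Cyp2f2, which oxidizes inhaled chemicals in club cells, read 11.99, 12.40, 12.61 and 12.65 in lung and 4.40, 4.46, 4.52 and 4.73 in cerebellum. Hp, the haemoglobin scavenger haptoglobin, lay 6.69 higher in lung and Aldh1a1, a retinaldehyde dehydrogenase, 3.23. Genes of multiciliated cells differed less, with 8 of 11 called higher in lung, 3 not called and a median of 0.82. The largest was Dynlrb2, a dynein light chain (2.22, with 9.47, 9.51, 9.90 and 9.94 in lung and 7.04, 7.46, 7.64 and 7.82 in cerebellum), then Tmem212 (2.05) and the tubulin-associated Tppp3 (2.04). Foxj1, the master transcription factor of motile cilia, was not called (0.42, means 6.88 and 6.46); ependymal cells of the brain carry motile cilia too, as background.

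All 18 genes of the epithelial surface were called higher in lung, with a median of 3.52. The keratins Krt7 (6.14), Krt8 (5.19) and Krt19 (4.91), the junction protein Cldn7 (4.92), the protease Prss8 (4.95), the epithelial cadherin Cdh1 (4.51) and the epithelial splicing regulator Esrp1 (4.52) were each at least 16-fold higher. Krt7 read 10.91, 11.18, 11.27 and 11.31 in the lungs and 4.77, 5.04, 5.11 and 5.19 in the cerebella, with no overlap. Over the 19 claudins as a family, which seal epithelial and endothelial junctions, 9 were called higher in lung, 2 in cerebellum and 8 not called. Under the centring on 46 genes these counts were 15, 2 and 2, beside 11278 of all 18193 genes called higher in lung. The 2 higher in cerebellum were Cldn11, a component of myelin (-4.58), and Cldn2, a leaky-epithelium claudin (-1.87).

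**Figure D2:**
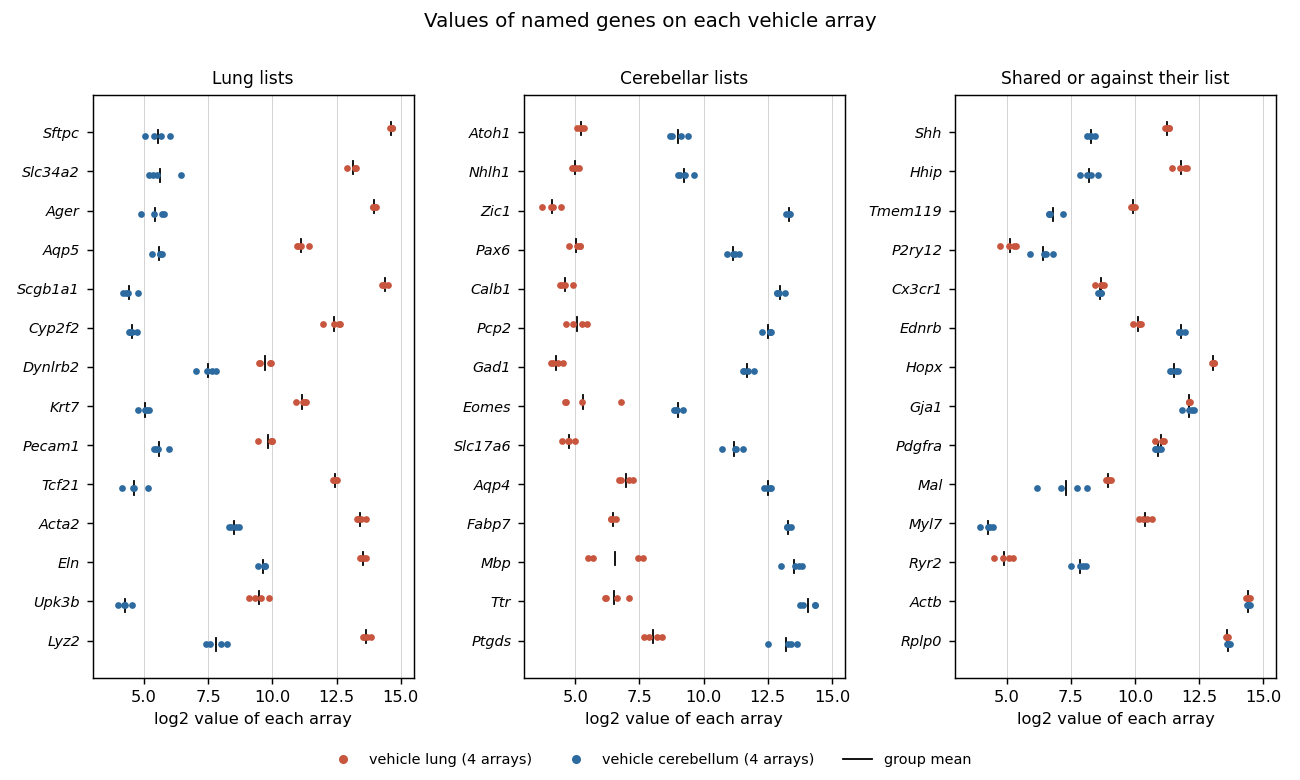
Log2 value of each of the 4 vehicle lung arrays and 4 vehicle cerebellum arrays for 42 genes, with a bar at each group mean. Group means lie 2.22 apart for Dynlrb2 and farther apart for the other genes of the lung lists (left) and cerebellar lists (middle). Genes at right are shared or run against their list. Shh lies at 11.27 in lung and 8.28 in cerebellum, and Actb at 14.40 and 14.41.

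Mesenchymal genes were mostly higher in lung. Of 16 genes of lipofibroblasts and matrix fibroblasts 13 were called in that direction (median 3.11), with Dpt and Tcf21 at the top. Tcf21, which marks the lipofibroblast lineage, read 12.35, 12.39, 12.49 and 12.50 in the lungs and 4.12, 4.58, 4.59 and 5.16 in the cerebella. The Wnt ligand Wnt2 (5.56), the microfibril protein Mfap5 (4.40) and the basement membrane protein Npnt (4.06) followed. Pdgfra, the receptor that marks alveolar myofibroblast precursors in lung and oligodendrocyte precursors in brain, was not called: it read 10.77, 11.05, 11.09 and 11.13 in lung and 10.78, 10.81, 10.93 and 11.04 in cerebellum, overlapping groups with a difference of 0.12 (95% interval -0.26 to 0.50). The mean of its probe sets was called higher in cerebellum, at -0.66.

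Of 14 genes of myofibroblasts and smooth muscle 13 were called higher in lung, 12 of them at 4-fold or more (median 4.04). Acta2, smooth muscle actin, read 13.29, 13.33, 13.46 and 13.63 in lung and 8.30, 8.38, 8.58 and 8.69 in cerebellum. Tagln, the actin-binding transgelin, lay 5.98 apart, the matrix proteoglycan asporin (Aspn) 6.15, the secreted Tgfbi 5.73 and enteric smooth muscle actin Actg2 5.43. Of 9 mesothelial genes, which mark the pleural lining, 7 were called higher in lung, led by Upk3b (5.21) and mesothelin Msln (4.75). Gpm6a ran against them: this neuronal membrane glycoprotein, which mesothelial cells also make, read 8.51, 8.77, 9.05 and 9.32 in lung and 13.29, 13.30, 13.32 and 13.32 in cerebellum.

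The matrix followed the mesenchyme. All 12 measured genes of elastic fibres and lung basement membrane were called higher in lung and each was at least 4-fold higher (median 3.75). Col4a4 and Col4a3, chains of a specialized basement membrane collagen, differed by 6.06 and 4.44, the latent TGF-beta binding protein Ltbp2 by 5.45, fibulin-5 (Fbln5) by 4.82 and the crosslinking oxidase Lox by 4.06. Elastin itself (Eln, named after its value was seen) read 13.42, 13.45, 13.58 and 13.64 in lung and 9.45, 9.67, 9.69 and 9.71 in cerebellum, a difference of 3.89. Of 16 fibrillar collagens and partners 15 were called higher in lung (median 2.91), with periostin (Postn) at 4.78, Col14a1 at 4.32 and Col6a3 at 4.09. Col5a3 was not called (-0.51, means 5.04 and 5.55), but was called higher in cerebellum without lung B19 (-0.76) or cerebellum B79 (-0.72).

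Endothelial genes were higher in lung in 17 of 18 cases, 14 of them by 4-fold or more (median 3.02). Pecam1, an endothelial adhesion molecule, read 9.45, 9.96, 9.98 and 9.99 in lung and 5.37, 5.46, 5.56 and 5.97 in cerebellum. Plvap, which forms the diaphragms of fenestrated and peripheral vessels and is scarce in vessels with a blood-brain barrier, lay 4.31 apart, the transcription factor Sox17 3.87, endothelial cadherin Cdh5 3.56 and the receptor Calcrl 3.55. Cldn5, the tight junction claudin of brain and lung vessels, differed less, at 1.90 (means 12.30 and 10.40). Ednrb, the endothelin B receptor, was the exception with 11.70, 11.72, 11.78 and 11.95 in cerebellum and 9.94, 10.16, 10.18 and 10.24 in lung (-1.66, SE 0.10); it is made by astrocytes and Bergmann glia as well as by endothelium.

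Blood and immune genes were higher in lung for most lists. For macrophages 12 of 14 were called higher in lung (median 1.52) and 2 were not called. Lyz2, lysozyme of myeloid and type 2 cells, read 13.54, 13.56, 13.67 and 13.85 in lung and 7.40, 7.58, 7.99 and 8.24 in cerebellum. The oxidase subunit Cybb (5.29), the chitinase-like Chil3 of alveolar macrophages (4.26), the lipopolysaccharide co-receptor Cd14 (2.77) and the integrin Itgax (2.50) were the next largest. Of 12 neutrophil and monocyte genes 10 were called higher in lung (median 3.09), led by Lcn2 (5.41), Plac8 (4.98), S100a9 (4.69) and S100a8 (4.47); the granule enzymes of early precursors Mpo (-0.04) and Elane (-0.16) were not called and read below 6 in both organs. Class II antigen presentation had 7 of 9 called higher in lung, with the class II chains H2-Aa (6.76), H2-Eb1 (4.43) and H2-Ab1 (4.28) and the invariant chain Cd74 (6.14).

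Lymphocyte and mast cell genes were nearer the detection floor. Of 13 T and NK cell genes 7 were called higher in lung, 1 in cerebellum and 5 not. Under the centring on 46 genes these counts were 11, 0 and 2, beside 11278 of all 18193 genes called higher in lung. The T cell receptor component Cd3d lay at 2.52 and the protease Gzma at 2.09. Rag1, called -0.58, read below 5 in both organs. B cell genes were called higher in lung in 7 of 10 cases, with Ms4a1 (CD20) at 3.69 and Ighm at 2.68. Mast cell and basophil genes were called higher in lung in 7 of 9 cases, the histamine-making enzyme Hdc leading at 2.87. Of 10 erythroid and platelet genes 8 were called higher in lung, including Alas2, which starts haem synthesis in red cell precursors (4.62), the anion exchanger Slc4a1 (4.56) and the platelet chemokine Ppbp (4.59). The part of blood left in the lung vessels in these differences was not tested. All 11 genes of class I presentation and the immunoproteasome, which cuts peptides for class I molecules, were higher in lung (median 1.95), among them Psmb8 (3.21), Psmb9 (2.58) and H2-D1 (2.19).

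Microglial genes did not go one way. Of 12 measured, 4 were called higher in cerebellum, 3 in lung and 5 were not called, beside 29.7% and 28% of all genes called each way. The counts are near those shares, so nothing particular to microglia is read from them. The median was -0.22 and turned to 0.25 when arrays were centred on the 46 genes. The purinergic receptor P2ry12 read 5.92, 6.47, 6.54 and 6.81 in cerebellum and 4.75, 5.11, 5.29 and 5.37 in lung (-1.30); Gpr34 (-1.42) and the transcription factor Sall1 (-2.15), which kidney and other tissues also use, went the same way. Tmem119, widely used as a microglial marker, was higher in lung, with 9.85, 9.92, 9.93 and 10.01 against 6.65, 6.67, 6.69 and 7.20 in cerebellum (3.13, SE 0.22, limma adjusted p = 1.56e-09), and Olfml3 likewise (3.13). The fractalkine receptor Cx3cr1 was not called, with 8.44, 8.68, 8.72 and 8.81 in lung and 8.56, 8.64, 8.69 and 8.69 in cerebellum, overlapping values.

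Granule neurons, the most numerous cells of the cerebellum, had all their listed genes on the cerebellar side. All 15 measured genes were called higher in cerebellum, 13 of them at 4-fold or more, and the median was -4.19. After Zic1, Neurod1 and Cbln1 came Pax6, a transcription factor of the rhombic lip lineage, with 10.92, 11.13, 11.20 and 11.37 in cerebellum and 4.74, 5.05, 5.16 and 5.17 in lung (-6.12), and the secreted guidance protein Reln (-5.38). The doublecortin gene Dcx, which binds microtubules in migrating neurons and was named after its value was seen, differed by -4.82.

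Progenitors of granule neurons were less uniform: of 12 genes 8 were called higher in cerebellum, 2 in lung and 2 were not called (median -0.85). Atoh1, the proneural factor that defines these cells, read 8.69, 8.75, 9.11 and 9.41 in cerebellum and 5.06, 5.19, 5.26 and 5.32 in lung. Nhlh1 (-4.25) and Barhl1 (-3.95), transcription factors of the same lineage, and the Wnt antagonist Sfrp1 (-3.73) went the same way. Hedgehog pathway genes on the list were divided. Gli2, an effector, was among the 8 called higher in cerebellum. Hhip, a hedgehog-binding protein induced by the pathway, read 11.44, 11.77, 11.97 and 12.02 in lung and 7.85, 8.14, 8.29 and 8.54 in cerebellum (3.59), the receptor Ptch1 was called slightly higher in lung (0.54), and the effector Gli1 (-0.49) and co-receptor Boc (-0.02) were not called. The call of Ptch1 was lost with the mean of its probe sets (0.12), and Gli1 was called when lung B22 (-0.60), cerebellum B78 (-0.58) or cerebellum B80 (-0.64) was left out. The ligand Shh, which the Purkinje list holds, read 11.16, 11.26, 11.31 and 11.33 in lung and 8.13, 8.26, 8.29 and 8.44 in cerebellum, 4 lungs above all 4 cerebella (2.99, SE 0.22, limma adjusted p = 2.45e-09).

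Apart from Shh, 12 of the 15 Purkinje cell genes were called higher in cerebellum and 2 were not called (median -3.28). Pcp2, a regulator of G protein signalling made in Purkinje cells, read 12.27, 12.57, 12.57 and 12.64 in cerebellum and 4.63, 4.89, 5.25 and 5.46 in lung. Lhx1, a LIM transcription factor of Purkinje cells (-7.00), the aldolase Aldoc of Purkinje cell stripes (-5.38) and parvalbumin, Pvalb (-4.63), followed. Foxp2 (-0.27) and the scaffold Homer3 (0.17) were not called; Foxp2 is also a lung epithelial transcription factor and read 9.62 in lung and 9.90 in cerebellum.

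Inhibitory interneurons had 8 of 11 genes called higher in cerebellum, led by Gad1 (11.53, 11.57, 11.71 and 11.97 against 4.06, 4.13, 4.32 and 4.53 in lung), the vesicular GABA transporter Slc32a1 (-5.50) and the lineage factor Ptf1a (-2.82). Kit, a receptor of interneurons, mast cells and other types, was called higher in lung (0.65). Unipolar brush and nuclear neurons had 6 of 9 called higher in cerebellum, led by the glutamate transporter Slc17a6 (-6.44) and the heavy neurofilament Nefh (-4.44). For Eomes, a transcription factor of unipolar brush cells and of some lymphocytes, the cerebella read 8.86, 8.91, 8.97 and 9.20 and the lungs 4.60, 4.64, 5.26 and 6.78; 1 lung array stood above the others, yet below every cerebellum.

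Glial lists held genes with large differences and genes that both organs share. Of 17 astrocyte and Bergmann glia genes 11 were called higher in cerebellum, 4 in lung and 2 were not called (median -3.10). Fabp7, the brain lipid binding protein of Bergmann glia, read 13.23, 13.26, 13.27 and 13.41 in cerebellum and 6.37, 6.39, 6.48 and 6.59 in lung. The glutamate transporter Slc1a2 (-6.27), the filament protein Gfap (-6.20), the water channel Aqp4 (-5.55) and Aldh1l1 of folate metabolism (-5.45) followed. Higher in lung were Hopx, the growth factor receptor Fgfr3 (1.36), the septin Septin4 (1.35) and the matrix protein Tnc (1.09). Gja1, the gap junction protein connexin 43, read 12.09, 12.11, 12.11 and 12.16 in lung and 11.83, 12.10, 12.22 and 12.29 in cerebellum and was alike in both (0.01, 95% interval -0.21 to 0.22).

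Oligodendrocyte genes were called higher in cerebellum in 11 of 16 cases, all 11 by 4-fold or more (median -2.99). Mbp, a major myelin protein, read 13.02, 13.54, 13.73 and 13.81 in cerebellum and 5.48, 5.68, 7.45 and 7.65 in lung, where the arrays were spread over 2 units. Olig1, Ugt8a, which makes myelin lipids (-5.34), and Mobp (-5.09) were next. Mal, a membrane traffic protein of myelin and of polarized epithelia, was called higher in lung (1.66), and Cspg4, a proteoglycan of oligodendrocyte precursors and pericytes, also (0.92). Of 10 genes of ependyma and choroid plexus 5 were called higher in cerebellum and 1, the water channel Aqp1, in lung (5.28). Ttr read 13.77, 13.86, 14.33 and 14.35 in cerebellum and 6.16, 6.18, 6.61 and 7.08 in lung. Meningeal genes were called higher in cerebellum in 9 of 12 cases, with the prostaglandin synthase Ptgds at -5.18 (12.52, 13.29, 13.40 and 13.63 against 7.66, 7.86, 8.20 and 8.39); Col1a1 went the other way (2.96).

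**Figure D3:**
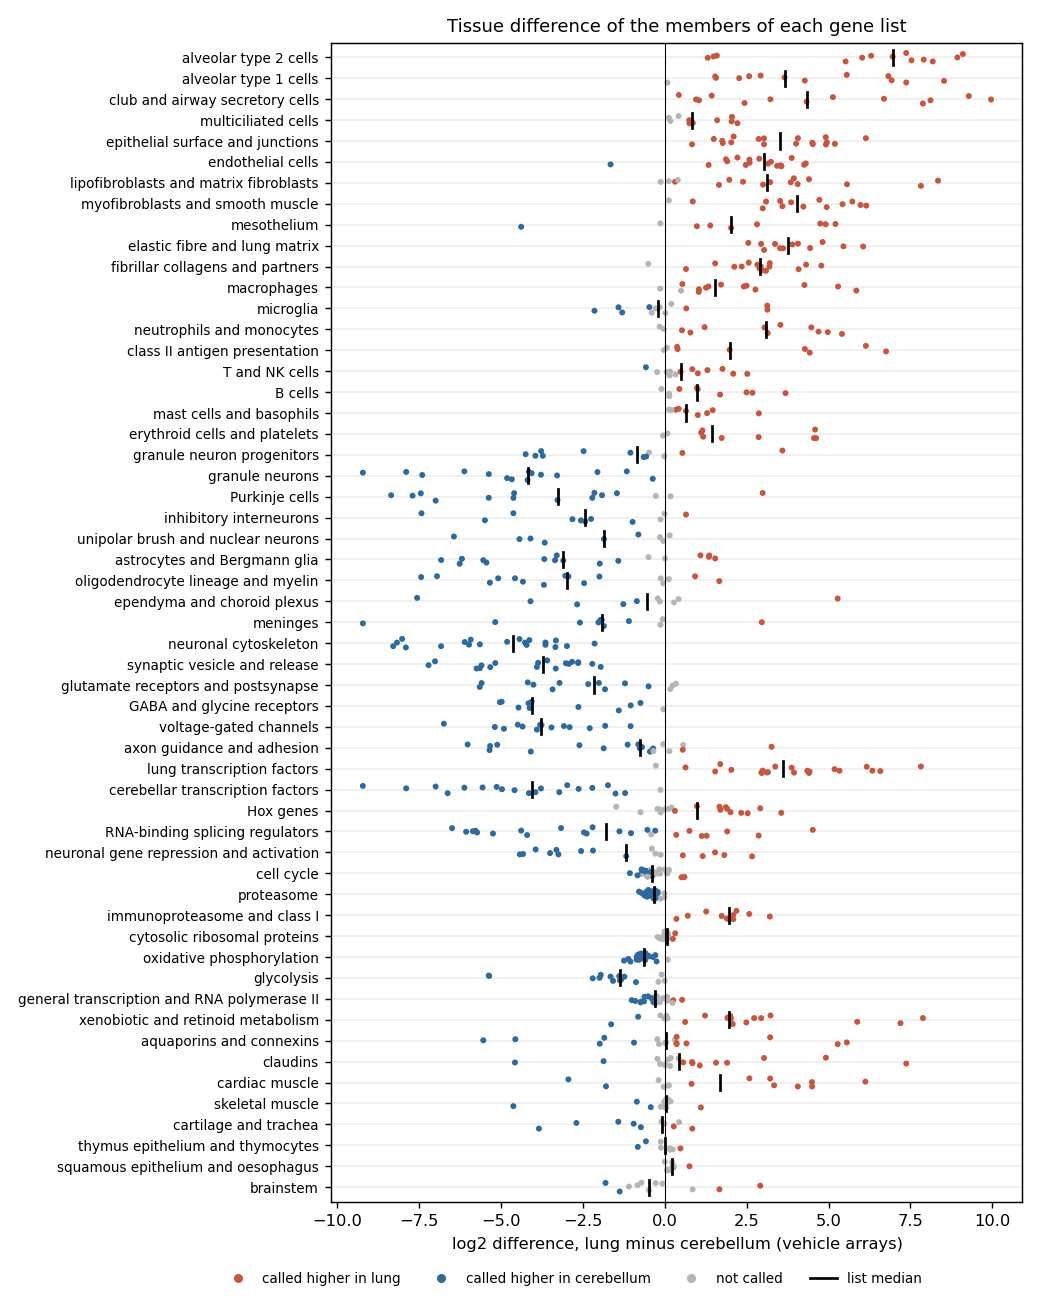
Log2 difference, lung minus cerebellum, of every measured member of the 55 gene lists, coloured by call, with a bar at each list's median. Lists of lung cells lie to the right and neuronal lists to the left, ribosomal proteins sit at 0, and the medians of microglia, cell cycle, proteasome, general transcription and cartilage turn positive when arrays are centred on 46 shared genes.

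The machinery of neuronal signalling lay on the cerebellar side for nearly every gene measured. All 20 neuronal cytoskeleton genes were called and were at least 4-fold higher there (median -4.63). Nefl read 12.00, 12.49, 12.51 and 12.74 in cerebellum and 4.27, 4.31, 4.44 and 4.63 in lung. All 18 synaptic vesicle genes were called higher in cerebellum (median -3.73), led by Snap25, a SNARE of vesicle fusion (-7.22), the calcium sensor Syt1 (-7.02), Sv2b (-5.75), Syp (-5.65) and Cplx1 (-5.60). Snap25 read 11.39, 11.62, 11.63 and 12.03 in cerebellum and 4.16, 4.27, 4.46 and 4.91 in lung. All 14 voltage-gated channel genes went the same way (median -3.79), with the potassium channel Kcnd2 at -6.75 and the sodium channels Scn8a and Scn2a at -5.19 and -4.92.

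Receptors were less complete. Of 14 genes of glutamate receptors and the postsynapse 11 were called higher in cerebellum (median -2.18), with the metabotropic receptor Grm5 at -5.66 and the AMPA receptor subunit Gria4 at -5.60. The kinase Camk2a (0.34) and the scaffold Shank1 (0.24) were not called and read near or below 6 in both organs; Shank1 was called without cerebellum B79 (0.31). Of 11 genes of GABA and glycine receptors 10 were called higher in cerebellum (median -4.07), with Gabrb1 (-5.04), the glycine receptor chains Glra2 (-4.98) and Glrb (-4.47) leading. Of 19 axon guidance genes 13 were called higher in cerebellum, 2 in lung and 4 were not called (median -0.76); under the centring on 46 genes 7 were called higher in cerebellum and 5 in lung (median -0.29). The netrin receptor Dcc (-6.02) and the adhesion protein Cntn1 (-5.35) were among the largest on the cerebellar side. The repellents Slit2 (3.26, with 11.72, 11.81, 11.82 and 11.96 in lung and 7.77, 8.62, 8.93 and 8.95 in cerebellum) and Sema3a (0.55) were called higher in lung. Robo1, a receptor of Slit2, was not called (0.14), though the mean of its probe sets was called at -0.52.

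Transcription factors of each organ were higher in that organ, with few exceptions. Of 22 lung transcription factors 21 were called higher in lung, 18 by 4-fold or more (median 3.62). Beside Tcf21 these were the T-box factors Tbx4 (6.58) and Tbx2 (6.34), Foxf1 of lung mesenchyme and endothelium (6.17) and Gata6 of lung epithelium and mesenchyme (5.34). Tbx4 read 10.71, 10.94, 11.10 and 11.16 in lung and 4.09, 4.38, 4.52 and 4.59 in cerebellum. Nkx2-1, the factor that specifies lung epithelium, had only a small difference on these arrays (0.63, means 5.43 and 4.80, both dim; named after its value was seen). Of 20 cerebellar factors 19 were called higher in cerebellum (median -4.05), with Zic5 (-6.64) behind Zic1, Neurod1 and Lhx1; Lhx9 was not called (-0.13).

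Hox genes pattern the trunk and hindbrain and are silent in the midbrain and in most of the cerebellum. Of 19 measured, 11 were called higher in lung, none in cerebellum and 8 were not called. Hoxb2 read 9.55, 9.56, 9.68 and 9.73 in lung and 5.33, 5.83, 6.22 and 6.92 in cerebellum, the largest difference of the family (3.56), followed by Hoxb5 (2.91) and Hoxa3 (2.53). Hoxc4 was lower in lung but not called (-1.49, with 4.42, 5.72, 6.44 and 8.03 in cerebellum and 4.48, 4.49, 4.78 and 4.92 in lung); the cerebella spread widely, and without cerebellum B79 the difference was called at -2.06.

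RNA-binding regulators of splicing were divided by member. Of 24 genes 16 were called higher in cerebellum, 7 in lung and 1 was not called. The neuronal Hu proteins Elavl2 (-6.50), Elavl4 (-6.07) and Elavl3 (-5.78), Rbfox3, known as NeuN (-5.87), and Celf4 (-5.73) led the cerebellar side. Esrp1 and Esrp2 of epithelia (4.52 and 2.87), the polypyrimidine tract proteins Ptbp3 (1.90) and Ptbp1 (0.75) and the muscleblind proteins Mbnl1 (1.28) and Mbnl2 (1.13) were higher in lung. Elavl1 was called higher in lung by 0.35 with overlapping arrays, and the mean of its probe sets gave -0.81. Its call was lost without cerebellum B78 (0.30) or B81 (0.28). Of 17 genes that repress or activate neuronal programmes 9 were called higher in cerebellum, 5 in lung and 3 were not called (median -1.18). Over all genes 29.7% and 28% were called each way. Rest, which silences neuronal genes outside neurons, read 10.43, 10.57, 10.66 and 10.66 in lung and 7.86, 7.89, 7.93 and 7.98 in cerebellum (2.66). The phosphatases Ctdsp1 (1.82) and Ctdsp2 (1.53) and the corepressor Rcor1 (1.16), partners of Rest, also were higher in lung. The neuronal factors Myt1l (-4.43) and Myt1 (-4.33) and the neuronal chromatin subunit Actl6b (-3.95) were higher in cerebellum.

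In some families, related genes stood on opposite sides. Of 37 families with measured members (110 genes), 16 had at least 1 member called higher in lung and another called higher in cerebellum, and in 6 of these both were at least 4-fold apart. Of the 110 genes, 40 were called higher in lung and 56 in cerebellum, beside 28% and 29.7% of all genes; with so many genes called each way, nothing particular to families is read from the count of 16. Among the classical cadherins, Cdh1 of epithelia (4.51) and Cdh5 of endothelium were higher in lung and Cdh2, neural cadherin, in cerebellum (-2.05). Cdh2 read 11.49, 11.62, 11.75 and 11.78 in cerebellum and 9.45, 9.55, 9.61 and 9.83 in lung. Beta tubulins ran from Tubb3 of neurons (-6.11) through Tubb2b (-3.65), Tubb4a (-3.33) and Tubb5 (-1.06) to Tubb6 (2.44). Vesicle SNAREs ran from Vamp2 of synaptic vesicles (-2.22) to Vamp3 (1.05) and Vamp8 (3.20), which serve secretion and endosomes elsewhere.

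Some families of signalling enzymes were among the 16. Protein kinase C isoforms ran from Prkcb (-5.07) and Prkca (-0.67) to Prkcd (2.18) and Prkch (3.01). Of the adenylate cyclases, which make cyclic AMP, Adcy1 (-5.98) and Adcy5 (-2.39) were higher in cerebellum, Adcy6 (1.66) and Adcy4 (2.44) in lung, and Adcy8 was not called (0.04). Adcy1 read 11.62, 11.93, 12.11 and 12.21 in cerebellum and 5.63, 5.92, 6.17 and 6.25 in lung. Of the S100 calcium-binding proteins, S100b of astrocytes was higher in cerebellum (-3.10) and S100a6 (3.26), S100a10 (1.84) and S100a1 (0.86) in lung.

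**Figure D4:**
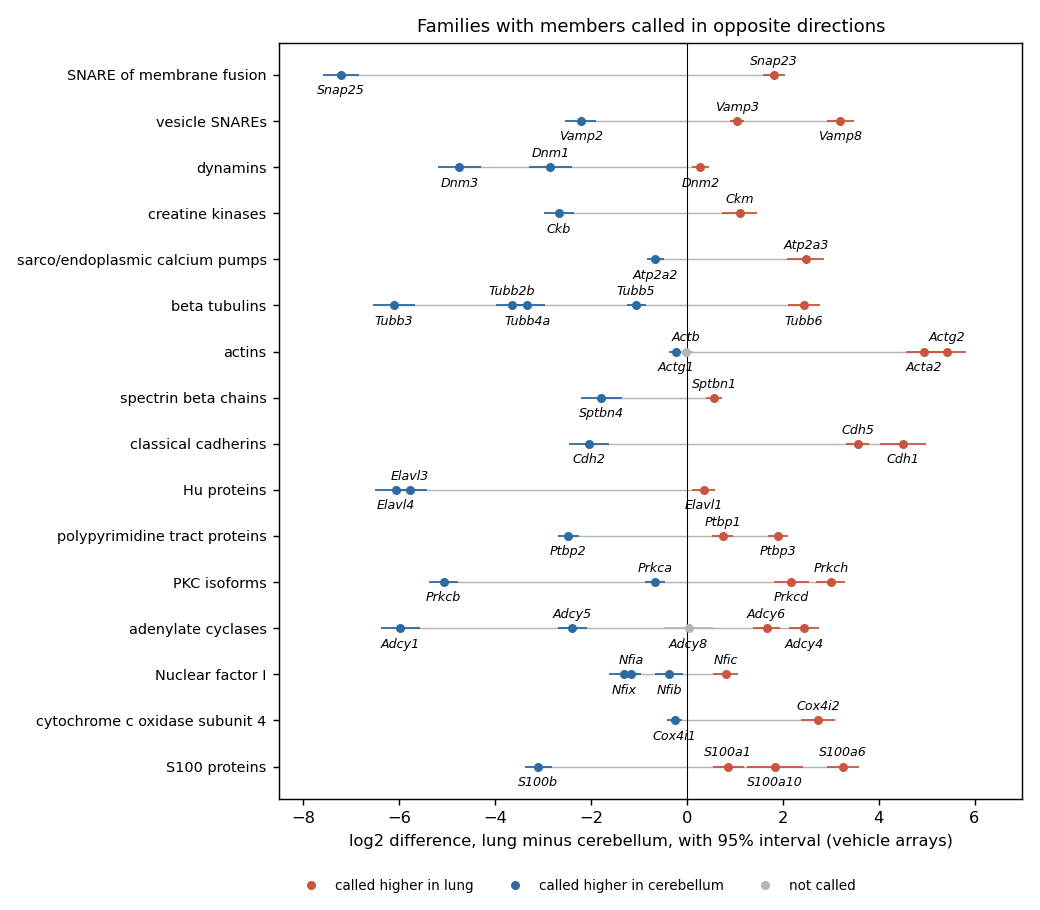
Log2 difference, lung minus cerebellum, with its 95% interval for the measured members of the 16 gene families that had members called in opposite directions. Cdh1 lies at 4.51 and Cdh2 at -2.05; the small difference of Elavl1 (0.35) became -0.81 when all its probe sets were averaged.

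Processes that every cell uses differed little, and their direction depends on the scale. Of 18 ribosomal protein genes 16 were alike and the median was 0.05. When arrays were centred on the 46 genes the median became 0.52, and 16 in place of 2 were called higher in lung. Over all 18193 genes that centring gave a median of 0.47, with 11278 called higher in lung. Rplp0 read 13.55, 13.58, 13.60 and 13.63 in lung and 13.59, 13.61, 13.62 and 13.72 in cerebellum. The brightest genes that were alike were Tmsb10, Actb, Tpt1, Tmsb4x, Rps29, Eef1a1, Rps28, Rpl37a, Actg1 and Rpl41, that is thymosins, cytoskeletal actins, ribosomal proteins and factors of translation or growth. Actb read 14.32, 14.41, 14.42 and 14.47 in lung and 14.35, 14.41, 14.42 and 14.47 in cerebellum, near the top of the scale where signals can saturate. Of 24 proteasome genes 21 were called higher in cerebellum, by a median of -0.35. Under that centring the median turned to 0.12, with 1 called higher in cerebellum and 5 in lung; the list supplies part of the 46 genes. Of 22 general transcription and RNA polymerase II genes 13 were called higher in cerebellum and 2 in lung (median -0.30), turning to 4 and 8 (median 0.17). The 27 cell cycle genes had 11 called higher in cerebellum, 2 in lung and 14 not called (median -0.39), turning to 2 higher in cerebellum and 7 in lung under the centring (median 0.08). Named members were Mcm7 of the replicative helicase at -1.07 and the cyclin Ccnd1 at 0.60.

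Energy metabolism favoured cerebellum on both scales. Of 23 oxidative phosphorylation genes 22 were called higher in cerebellum (median -0.64, or -0.17 under the other centring, where 9 were called higher in cerebellum and 1 in lung), with cytochrome c1 (Cyc1) at -1.25 and the ATP synthase subunit Atp5o at -1.11. Cyc1 read 12.65, 12.67, 12.71 and 12.73 in cerebellum and 11.40, 11.42, 11.43 and 11.51 in lung. Of 16 glycolysis genes 13 were called higher in cerebellum (median -1.38), led by the brain forms Aldoc and Eno2 (-5.37) and the neuronal glucose transporter Slc2a3 (-2.20); Ldha (-0.10) and Pfkl (-0.20) were not called. Xenobiotic and retinoid enzymes favoured lung, with 13 of 20 called there, 2 called in cerebellum and a median of 1.96. Adh1, an alcohol and retinol dehydrogenase, read 13.71, 13.72, 13.74 and 13.81 in lung and 6.41, 6.42, 6.56 and 6.81 in cerebellum, and the cytochrome P450 Cyp4b1 lay 5.88 apart. Cyp1b1 was called higher in cerebellum (-1.64). The glucocorticoid receptor Nr3c1 read 11.10, 11.17, 11.20 and 11.24 in lung and 9.34, 9.37, 9.45 and 9.60 in cerebellum, higher in every lung (1.74, SE 0.10, limma adjusted p = 5.53e-11).

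Markers of tissues that a dissection could carry along were read as well. Of 14 cardiac muscle genes 8 were called higher in lung, with the atrial myosin light chain Myl7 at 6.12 (10.16, 10.31, 10.47 and 10.65 in lung, 3.97, 4.28, 4.35 and 4.49 in cerebellum), Myh6 at 4.50 and Actc1 at 4.49. The ventricular myosin light chain Myl2 (0.13, means 4.73 and 4.60) was not called. Cardiac muscle around the pulmonary veins is part of the mouse lung, as background. Where the cardiac RNA in these lungs came from was not tested. The calcium channel Ryr2 (-2.95) and Mybpc3 (-1.80) were called higher in cerebellum. Skeletal muscle (1 higher in lung, 3 in cerebellum, 9 not called), thymus (1, 2 and 5) and squamous epithelium (2, 0 and 7) showed little, and apart from Pvalb the largest difference in these 3 lists was that of the muscle creatine kinase Ckm (1.10). Under the centring on 46 genes these lists had 10, 6 and 9 members called higher in lung, with medians of 0.50, 0.48 and 0.69. Of all 18193 genes 11278 were called higher in lung under that centring, with a median of 0.47. The medians of the skeletal muscle and thymus lists lie near it. Cartilage genes were higher in cerebellum for 5 of 11 members, with Col9a1 at -3.85 and Col2a1 at -2.70, and in lung for 2, and their median of -0.10 turned to 0.37 under the centring on 46 genes. Of 11 brainstem genes 2 were called higher in cerebellum, Tlx3 (-1.81) and the noradrenaline-making enzyme Dbh (-1.38), 2 Hox genes in lung and 7 were not called. The part of neighbouring tissue in these and the other differences was not tested.

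For some genes, probe sets of the same gene differed in opposite directions. Of 4583 genes with at least 2 probe sets called, 432 (9.43%) had probe sets called in opposite directions, 27 by at least 2-fold both ways and 4 by at least 4-fold both ways. The widest gap was in Ppp2r2c, a regulatory subunit of protein phosphatase 2A: 1 probe set differed by -6.74 and another by 1.44, the latter with means of 6.06 and 4.63. In Cdc42, a small GTPase with a brain form made by alternative splicing of its last exon, 1 probe set read 6.63 on average in lung and 12.13 in cerebellum (-5.49), whereas another read 12.82 and 12.28 (0.54). The dexamethasone arrays gave Cdc42 the same pair of directions (-5.50 and 0.55). Epb41l4b (-5.54 and 1.75), Daam1 (-5.43 and 0.75), the microtubule protein Map4 (-5.10 and 0.95), the kinase Aak1 (-4.49 and 1.32), the kinesin light chain Klc1 (-4.60 and 0.88) and Rnf130 (-3.92 and 1.17) were the rest of the 8 widest. In the dexamethasone arrays 141 of the 432 genes again had the same probe sets called in both directions. The probe sets of Daam1 and Map4 that were higher in lung were not called there (0.21 and 0.18). Their vehicle means, lung first, were 6.12 and 5.37 for Daam1 and 6.84 and 5.89 for Map4. The other genes among the 8 had both directions called again. Which transcripts the probe sets match was not tested.

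**Figure D5:**
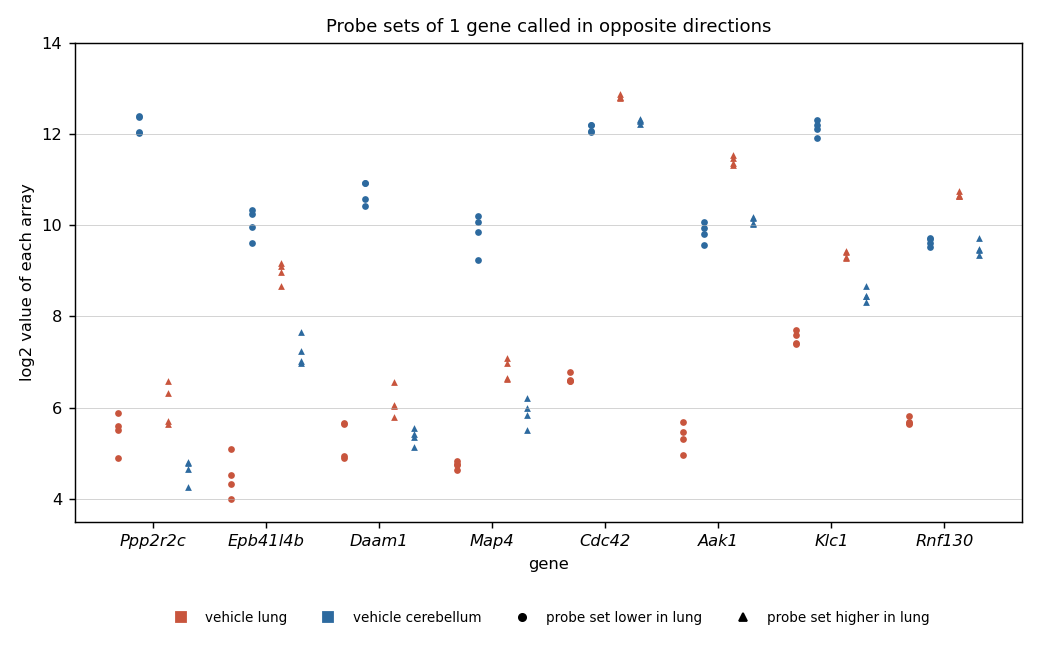
Log2 value of each vehicle array for the 2 probe sets of 8 genes that were called in opposite directions, circles for the probe set lower in lung and triangles for the one higher in lung. In Cdc42 the circles fall from a mean of 12.13 in cerebellum to 6.63 in lung, while the triangles lie at 12.28 and 12.82.

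The same tissue difference was read in the dexamethasone arrays, which are other samples though fitted with the vehicle arrays in 1 model. There 64.6% of genes were called. Of the 10497 genes called in vehicle arrays 8839 (84.2%) were called in the same direction and 202 in the opposite one. Of the 2284 genes at least 4-fold apart, 2273 (99.5%) were called in the same direction, 2020 of them again at 4-fold or more, and 1 in the opposite one. That gene was Prokr2, a prokineticin receptor, at 2.12 in vehicle and -0.89 in dexamethasone arrays (named after its values were seen).

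The size of the difference was not always kept. A test of the difference between the tissue contrasts called 3879 genes, 735 of them among the 2284. Chil3 lay 4.26 apart in vehicle and 8.79 in dexamethasone arrays (limma adjusted p of the difference = 4.6e-08). For the methyltransferase Inmt the values were 3.85 and 8.14, and for Dcx -4.82 and -8.52, both wider under dexamethasone; both were named after their values were seen. The class II chains H2-Ab1 (4.28 and 0.74) and H2-Aa (6.76 and 3.40) lay closer under dexamethasone. Scgb1a1 (9.96 and 10.04) and Zic1 (-9.22 and -8.84) differed little between the contrasts.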

How the data were processed

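RNA of whole lung or whole cerebellum of postnatal day 7 mice was measured on 16 Affymetrix arrays. The deposited values are log2 expression values, which the authors made with RMA (background correction, quantile normalization and probe set summary) per the submitters' processing notes, with no version given. Of 45101 probe sets, 64 controls were left out, 34945 paired with 1 gene symbol in GEO's platform annotation, 932 with several and 9160 with none; 18032 of 18193 symbols were found in RefSeq. One probe set per gene, the one with the highest mean over 16 arrays, was kept. Group means were fitted with limma 3.58.1 (lmFit, eBayes; R 4.3.3) over all 16 arrays, with 12 residual degrees of freedom, and each contrast was adjusted by Benjamini-Hochberg over all 18193 genes. The fit was tested on simulated data. The precision rests on 4 arrays a group; RMA values carry no depth. The 55 gene lists hold 820 measured members, with a gene counted once for each list that holds it.

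The comparison and the lists were chosen with earlier results of these data known. Named genes were the 15 largest differences each way without overlap, for each list up to 5 called members with the largest differences, every called member against its list and the 2 brightest uncalled members, all members of families opposed at 4-fold, the 10 brightest alike genes, the 8 genes with the widest probe set gap, Xist, Nr3c1 and the Gapdh and actin controls. Ddx3y was also on the rule, and Kdm5d was read in its place. Alternatives were the mean of all probe sets, leaving out genes without a value above 6 on at least 4 vehicle arrays, repeated quantile or cyclic loess normalization, centring on 46 genes, the vehicle arrays alone, robust estimation with a variance trend, weights per array, Xist as a covariate, and each vehicle array left out. Promoter windows came from RefSeq (GRCm38.p6). Other probe sets of a gene were used only where stated.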

Additional observations from a re-analysis of the deposited data

Results flagged for a closer look

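For 21 of 524 gene and group pairs, 1 of 4 vehicle arrays stood apart from the others by Dixon's criterion, which chance meets in about 1 in 20 groups. High arrays in the vehicle cerebella were Actl6b in cerebellum B79 at 9.24 against 9.00 to 9.03, Aldh1a1 in cerebellum B81 at 8.95 against 8.62 to 8.63 and Mcm7 in cerebellum B79 at 12.53 against 12.13 to 12.20. A high value also stood out for Tmem119 in cerebellum B81 at 7.20 against 6.65 to 6.69. High arrays in the vehicle lungs were Adcy8 in lung B22 at 7.45 against 6.90 to 6.99, Cntn1 in lung B19 at 8.04 against 7.53 to 7.58 and Dcc in lung B14 at 4.81 against 4.37 to 4.45. A high value also stood out for Gria4 in lung B14 at 5.41 against 5.02 to 5.06, Kif5c in lung B12 at 5.18 against 4.76 to 4.79 and Vamp3 in lung B19 at 12.06 against 11.89 to 11.91. Low arrays in the vehicle cerebella were Col1a1 in cerebellum B80 at 9.17 against 9.54 to 9.58, Eln in cerebellum B80 at 9.45 against 9.67 to 9.71 and Gabrb1 in cerebellum B79 at 9.12 against 9.91 to 10.07. A low value also stood out for Mbnl2 in cerebellum B80 at 10.74 against 11.07 to 11.14, Sall1 in cerebellum B78 at 6.60 against 7.05 to 7.11 and Zic1 in cerebellum B80 at 13.21 against 13.33 to 13.36. Low arrays in the vehicle lungs were Cxcl15 in lung B19 at 12.81 against 13.15 to 13.17, Pecam1 in lung B19 at 9.45 against 9.96 to 9.99 and Ptch1 in lung B19 at 11.95 against 12.14 to 12.17. A low value also stood out for Sv2b in lung B14 at 4.77 against 4.91 to 4.92 and Tnc in lung B19 at 11.71 against 11.83 to 11.85.

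For 100 of the 262 genes with printed values, limma called the tissue difference in the dexamethasone arrays different from that in the vehicle arrays. The same test called 3879 of all 18193 genes, and 735 of the 2284 at least 4-fold apart. Printed genes were mostly chosen for large differences, some after their values were seen, so their count is not a share of all genes. The numbers below are the dexamethasone difference minus the vehicle difference on the log2 scale, so a positive number means a shift towards lung. Among genes higher in lung, the gap was wider with dexamethasone for Chil3 (4.53), Inmt (4.29), S100a9 (3.30), S100a8 (3.08), Epb41l4b (2.43), Cd14 (2.32), Lcn2 (1.95), S100a6 (1.69), Msln (1.67), Krt19 (1.60), Vamp8 (1.57) and Hp (1.36). Next came Aqp5 (1.34), Esrp2 (1.33), Cyp4b1 (1.25), Ppbp (1.24), S100a1 (1.21), Sftpd (1.20), S100a10 (1.18), Lox (1.16), Actc1 (1.05), Lyz2 (1.01), Hopx (0.98) and Ckm (0.95). Smaller shifts were those of Dynlrb2 (0.94), Gprc5a (0.91), Krt8 (0.90), Myl7 (0.88), Prss8 (0.88), Ager (0.77), Sftpa1 (0.71), Cybb (0.68), Sema3a (0.65), Krt7 (0.65), Cyp2f2 (0.64) and Cdh5 (0.56). The list goes on with Cldn5 (0.56), Eln (0.54), Dram1 (0.45), Ptbp3 (0.43) and Lpcat1 (0.36). Among genes higher in lung, the gap was narrower for H2-Ab1 (-3.53), H2-Aa (-3.36), H2-Eb1 (-3.14), Ltbp2 (-2.54), Ms4a1 (-2.40), Cd74 (-2.09), Actg2 (-1.77), Cd3d (-1.76), Slit2 (-1.66), Scn7a (-1.37), Hoxb2 (-1.30) and Aspn (-1.17). Next came Ighm (-1.16), Dpt (-1.13), Itgax (-1.12), Mfap5 (-1.11), Plvap (-1.0), Septin4 (-0.93), Adcy6 (-0.90), Hhip (-0.76), Acta2 (-0.74), Tagln (-0.74), Aak1 (-0.70) and Mbnl2 (-0.56). Among genes higher in cerebellum, the gap was wider with dexamethasone for Dcx (-3.70), Cdh2 (-2.19), S100b (-1.70), Tubb4a (-1.57), Klc1 (-1.53), Tubb2b (-1.36), Elavl2 (-1.35), Scn2a (-1.06), Tubb5 (-0.96), Adcy5 (-0.92), Mcm7 (-0.87) and Stmn3 (-0.46). Next came Celf4 (-0.45). Among genes higher in cerebellum, the gap was narrower for Reln (2.51), Sfrp1 (2.14), Aldh1l1 (1.45), Aqp4 (1.31), Col2a1 (1.11), Slc2a3 (1.06), Gpm6a (0.98), Lhx1 (0.75) and Ednrb (0.42). The sign of the fitted difference turned from lung to cerebellum for Prokr2 (-3.01, from 2.12 to -0.89), Tnc (-3.00, from 1.09 to -1.91), Igfbp2 (-2.90, from 0.08 to -2.82), Adcy8 (-1.62, from 0.04 to -1.59) and Cspg4 (-1.62, from 0.92 to -0.69). It turned the same way for Kit (-1.36, from 0.65 to -0.71), Rcor1 (-1.17, from 1.16 to -0.01), Homer3 (-1.03, from 0.17 to -0.85), Robo1 (-0.95, from 0.14 to -0.81) and Ptch1 (-0.61, from 0.54 to -0.07). The sign of the fitted difference turned from cerebellum to lung for Cyp1b1 (1.84, from -1.64 to 0.20), Mpo (1.15, from -0.04 to 1.11) and Elane (0.71, from -0.16 to 0.55). Uncalled vehicle differences are placed by their sign.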

How the results depend on the processing

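Under 17 alternatives, 233 of 262 genes with printed values kept their side of the threshold throughout. These genes also kept their direction wherever the main fit or the alternative called them. Of 4441 gene and alternative pairs, 6 lost a call, 24 gained one and 17 changed sign with a call in either fit. Changes of sign without a call in either fit were not counted. Centring on the 46 proteasome and general transcription genes gave 11278 genes called higher in lung, 2806 higher in cerebellum and 2369 alike, since it shifts every gene the same way; it is circular for those 2 lists. It reversed Actb (0.46), Boc (0.45), Ldha (0.37), Lhx9 (0.33), Map4 (0.13), Mpo (0.43) and Rplp0 (0.43). Averaging all probe sets of a gene reversed Aak1 (-0.35), Camk2a (-0.24), Cdc42 (-1.15), Daam1 (-1.45), Elavl1 (-0.81), Epb41l4b (-2.49), Pdgfra (-0.66), Rnf130 (-1.52) and Robo1 (-0.52). Cyclic loess reversed Actb (0.18). With dim genes left out (12294 tested) 2674 were alike, since many alike genes are dim, and with a bound of 1 in place of 0.5 11689 were. Leaving out 1 vehicle array gave 4791 to 5022 genes called higher in lung, 5104 to 5306 in cerebellum, 1160 to 1208 and 1086 to 1136 at 4-fold or more, and 5592 to 5904 alike. At 4-fold or more, averaging probe sets gave 932 genes higher in lung and 850 in cerebellum, and centring on the 46 genes gave 1692 and 873. Averaging probe sets also moved list medians, such as granule neurons from -4.19 to -2.82 and mesothelium from 2.02 to 2.81. A fit of the 8 vehicle arrays alone could give no value for the dexamethasone arrays. No paired analysis was possible because the groups share no replicate numbers. The values carry no detection calls, dim and saturated probe sets understate differences, and levels of different genes cannot be compared.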

Other observations

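Genes with large differences tended to have neighbours of the same kind. Among the 1179 genes at least 4-fold higher in lung that have a next measured gene along the chromosome in the RefSeq order, that next gene was also at least 4-fold higher in lung for 148 (12.6%), where 6.50% of genes in the order are. On the cerebellar side the next gene was at least 4-fold higher in cerebellum for 97 of 1097 (8.84%, against 6.06%). The next gene was at least 4-fold higher in the opposite organ in 61 and 55 cases. These are counts with no test, and neighbouring copies of a gene can share probe signal.

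Runs of 3 or more such genes numbered 24, of which 16 were on the lung side. The longest on that side were Gimap8, Gimap9, Gimap4 and Gimap6, small GTPases of lymphocytes and endothelium, on chromosome 6, and Ifitm2, Ifitm1, Ifitm3 and Ifitm6, interferon-induced membrane proteins, on chromosome 7. The class II genes H2-Ab1, H2-Aa and H2-Eb1 on chromosome 17 and S100a6, S100a8 and S100a9 on chromosome 3 formed runs of gene families. Other lung runs held unlike genes, such as Irf8, the noncoding Fendrr and Foxf1 on chromosome 8. The longest cerebellar run was Adcyap1r1, Neurod6, Ppp1r17 and Pde1c on chromosome 6. Gria2, Glrb and Pdgfc on chromosome 3 and the sodium channels Scn3a and Scn2a with Csrnp3 on chromosome 2 were shorter ones.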
